A study of Danio rerio with 6 samples.

Results

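The Gig2 genes are a family of small interferon-induced genes of fish. The members were taken by symbol: every row of the count table whose symbol is *gig2* followed by a letter, which gave 12 genes of 30713 named rows (*gig2d* to *gig2l*, *gig2o*, *gig2p* and *gig2q*). The family was singled out because its levels in larvae after embryonic alcohol exposure (EAE) and in control larvae were already known. Its values in that comparison are therefore given as a description, and no test of them is used as support.

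Interferons are signalling proteins that cells release on sensing viral nucleic acid. They bind paired receptors, JAK kinases then phosphorylate STAT proteins, and STAT and IRF transcription factors switch on a broad set of antiviral genes. Gig2 was first found in cultured cells of crucian carp as a gene switched on by inactivated grass carp reovirus, which is where its name comes from. Its proteins resemble the catalytic part of the poly(ADP-ribose) polymerases (PARPs), and zebrafish carry many copies, some of them side by side on a chromosome.

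A total of 6 libraries were analysed, each made from a pool of 30 whole wild-type AB zebrafish larvae at 7 dpf. The 3 EAE pools had been exposed to EtOH at 1%, starting at 12 hpf and ending at 5 dpf. The 3 control pools had been kept at 0% over the same period, and both groups then spent 48 hours in water without EtOH and with food. The labels describe siblings divided among tubes. The study describes independent groups of larvae in its results and combined clutches in its methods. The spread between pools may therefore be partly technical. In homogenized larvae, fewer cells of a type and less RNA per cell cannot be told apart.

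Named rows held 19921809 to 23638705 counts per EAE pool and 17264955 to 20724876 per control pool. Levels are given in CPM, the counts of a gene scaled to the size of its library, after TMM normalization in edgeR, whose factors lay between 0.986 and 1.02. Pools of the same group differed from each other by more than counting noise, with chi-square values of 3.44 to 4.87 per degree of freedom, so each was kept as a separate library. Over all 21617 genes that passed edgeR's filter on low counts, the median log2 fold change was 0.0008.

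The Gig2 genes as a sum were higher in EAE larvae, with 6 of them higher in every pool, while the gene with the most counts was not among these. The 12 genes together held 693, 496 and 567 counts in the EAE pools, against 361, 299 and 376 counts in the control pools. The summed level was 29.8, 24.5 and 28.5 CPM in EAE larvae, against 18.2, 17.3 and 18.3 CPM in controls. No EAE pool came near a control pool, and the control pools were the tighter group. The means were 27.6 ± 2.73 CPM in EAE larvae and 17.9 ± 0.526 CPM in controls (SD, n = 3 each), a ratio of 1.54 (log2 ratio 0.62). How reads shared by similar copies were counted is not known, and its part in the sum was not tested. Without *gig2e*, which had the most counts, the log2 ratio of the other 11 genes was 0.91. Much of the difference in the sum came from *gig2q*, at means of 7.27 CPM in EAE larvae and 2.51 CPM in controls. Without both *gig2e* and *gig2q*, the log2 ratio of the other 10 genes was 0.66. The sum without *gig2q* alone was not computed.

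All 3 EAE pools lay above all 3 control pools for 6 of the 12 genes (*gig2f*, *gig2i*, *gig2l*, *gig2o*, *gig2p* and *gig2q*), and 0 genes had all EAE pools below. Across the rows with at least 1 count, 13.3% had all EAE pools above and 13.4% had all below. A total of 7 members passed the filter on low counts. The filter asks for about 10 counts, scaled to library size, in at least 3 pools. *gig2l* reached this level in no control pool and *gig2i* in control pool 2 only, so both passed through their EAE pools. In edgeR's quasi-likelihood (QL) F test, fitted and adjusted over the whole table, 4 of the 7 had an adjusted p-value below 0.05, a threshold that 14.2% of the tested genes passed. Because the family was chosen on this contrast, nothing is read from these counts.

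**Figure D1:**
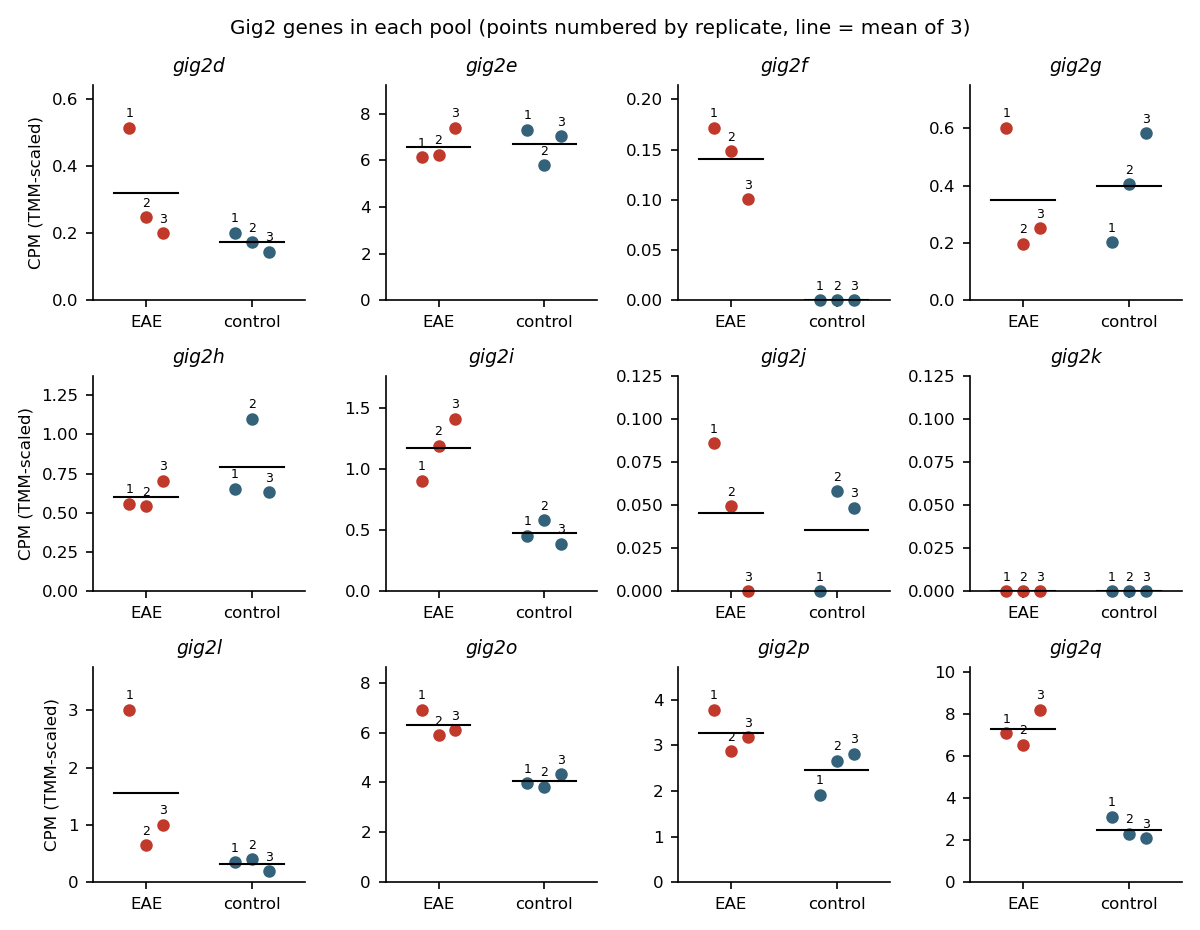
Level of each of the 12 Gig2 genes (CPM after TMM scaling, linear axes starting at 0 and differing between panels) in the 3 EAE pools (red) and the 3 control pools (blue); numbers give the replicate and lines the group mean. The groups are apart for *gig2f*, *gig2i*, *gig2l*, *gig2o*, *gig2p* and *gig2q*, overlap for *gig2d*, *gig2e*, *gig2g*, *gig2h* and *gig2j*, and *gig2k* has no count.

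The gene *gig2q* had the clearest separation among those with ample counts. It held 165, 132 and 163 counts in EAE pools, against 62, 40 and 43 counts in control pools. These correspond to 7.09, 6.53 and 8.20 CPM in EAE larvae, against 3.13, 2.32 and 2.09 CPM in controls. The gap between the groups was wider than the range of either group. The log2 fold change was 1.53 (standard error 0.16), or 2.89-fold, and it stayed between 1.41 and 1.72 when single pools were left out.

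The gene *gig2l* had the highest fold change of the family, but 1 pool set its size. Its counts were 70, 13 and 20 in EAE pools 1, 2 and 3, against 7, 7 and 4 in control pools. EAE pool 1 was far above the other EAE pools, which in turn were above every control pool. The log2 fold change was 2.34 (standard error 0.54) with all pools, and 1.38 without EAE replicate 1. By fold change with all pools it ranked 10 among 21617 genes, with *gig2q* at 31 and *gig2i* at 46. These ranks only describe a family chosen on this contrast, and *gig2l* and *gig2i* passed the filter on low counts only through their EAE pools.

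The gene *gig2i* held 21, 24 and 28 counts in EAE pools, against 9, 10 and 8 counts in control pools. The counts were low in both groups but did not overlap. Its log2 fold change was 1.29 (standard error 0.31), or 2.45-fold, and EAE pool 1 was here the lowest of the EAE pools rather than the highest.

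The pair *gig2o* and *gig2p* moved less. The gene *gig2o* was at 6.91, 5.89 and 6.09 CPM in EAE larvae, against 3.98, 3.82 and 4.32 CPM in controls, a log2 fold change of 0.64 (standard error 0.13). The gene *gig2p* was at 3.78, 2.87 and 3.17 CPM in EAE larvae, against 1.92, 2.66 and 2.82 CPM in controls. Its groups were barely apart, the lowest EAE pool lying next to the highest control pool. The log2 fold change of *gig2p* was 0.42 (standard error 0.18), with values of 0.26 without control replicate 1 and 0.29 without EAE replicate 1.

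The gene *gig2e* differed little between the groups. It held 143, 126 and 147 counts in EAE pools, against 145, 100 and 145 counts in control pools. The pools of both groups were interleaved, and the log2 fold change was -0.04 (standard error 0.12). Its sign was positive without EAE replicate 1, control replicate 1 or control replicate 3 (0.02, 0.03 and 0.002) and negative in the other fits that left out a pool.

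The gene *gig2h* held 13, 11 and 14 counts in EAE pools, against 13, 19 and 13 counts in control pools. The groups overlapped, and only control pool 2 stood above the rest. The log2 fold change was -0.38 (standard error 0.33), and -0.10 without control replicate 2.

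**Figure D2:**
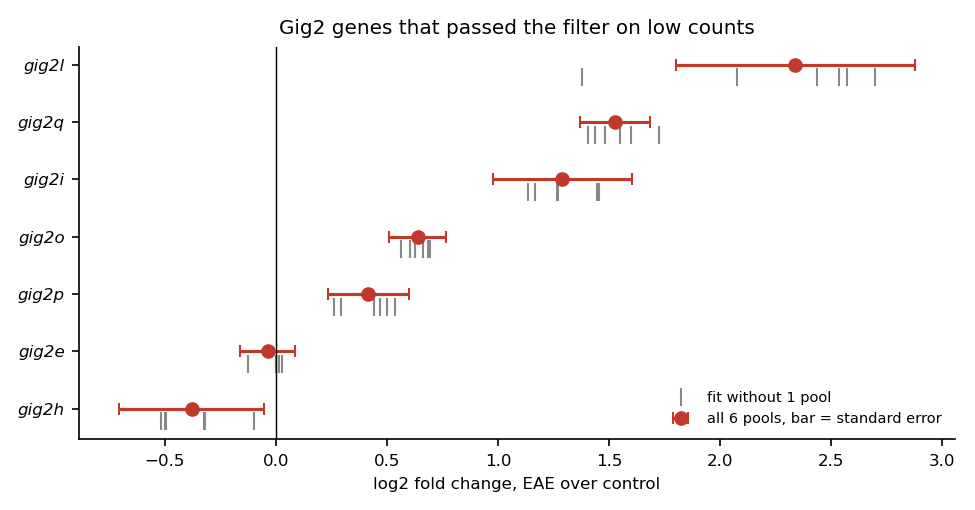
Log2 fold change of EAE over control (horizontal axis) for the 7 Gig2 genes that passed the filter on low counts; red points and bars give the edgeR estimate and its standard error over 6 pools, grey ticks the estimates with 1 pool left out. *gig2l* lies at 2.34 with a tick at 1.38, while *gig2q* lies at 1.53 and *gig2e* at -0.04.

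The other 5 genes had too few counts to be tested. The gene *gig2f* held 4, 3 and 2 counts in EAE pools and 0 counts in each control pool, so it was detected only in EAE pools. With 3 counts over the control group as the floor, its level in EAE larvae was at least 2.73-fold higher, a bound that takes the EAE counts as observed and allows for counting error in the control group only. The gene *gig2d* held 12, 5 and 4 counts in EAE pools, against 4, 3 and 3 in control pools, so EAE pool 1 alone stood apart. The gene *gig2g* held 14, 4 and 5 counts in EAE pools, against 4, 7 and 12 in control pools, with a sum of 23 in each group. The gene *gig2j* held 2, 1 and 0 counts in EAE pools, against 0, 1 and 1 in control pools. The gene *gig2k* had 0 counts in all 6 pools, which allows a level of up to 0.0248 CPM over the pools together.

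The members did not all peak in the same EAE pool. Of the 11 genes with a count, 7 had their highest EAE level in EAE pool 1 (*gig2d*, *gig2f*, *gig2g*, *gig2j*, *gig2l*, *gig2o* and *gig2p*) and 4 in EAE pool 3 (*gig2e*, *gig2h*, *gig2i* and *gig2q*). For *gig2d*, *gig2f*, *gig2g* and *gig2j* that place rests on few counts. None was highest in EAE pool 2, which was the lowest EAE pool for 5 of the 7 tested genes. EAE pool 1 was lowest for 2 of the 7 and EAE pool 3 for 0. Among the control pools, 3, 4 and 3 genes were highest in control pools 1, 2 and 3. Of the 7 tested genes, 1, 2 and 4 were lowest in control pools 1, 2 and 3. The share of all tested genes with each of these places was not counted, and copies may share reads. The counts of members are therefore a description, and whether members vary together was not tested.

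The make-up of the family's counts differed between the groups. The share of *gig2e* was 20.6%, 25.4% and 25.9% in EAE pools, against 40.2%, 33.4% and 38.6% in control pools. The share of *gig2q* was 23.8%, 26.6% and 28.7% in EAE pools, against 17.2%, 13.4% and 11.4% in control pools. In EAE pools *gig2q* thus drew the most reads of the family over the group (26.2%, against 14.0% in controls), a place that *gig2e* held in controls (23.7% in EAE pools, against 37.6%). The share of *gig2o* was close in both groups, at 22.8% in EAE pools and 22.6% in controls. *gig2l* took 10.1% of the family's counts in EAE pool 1, 2.62% to 3.53% in the other EAE pools and 1.06% to 2.34% in the control pools. These are shares of reads, since transcript lengths were not used here, and they do not rank the genes by transcript number.

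**Figure D3:**
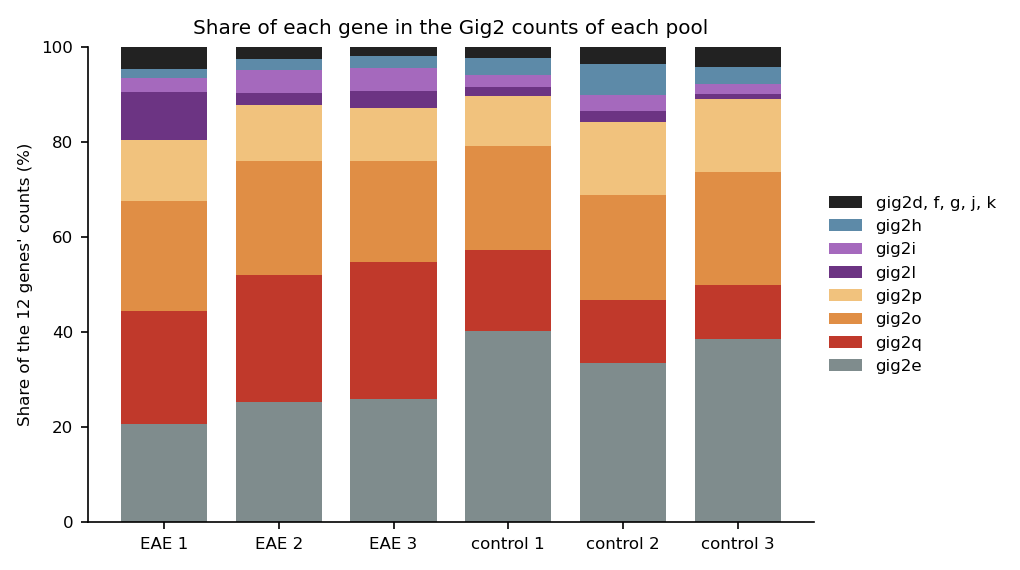
Share of each gene in the summed Gig2 counts of a pool (vertical axis, percent, bars from 0 to 100) for the 3 EAE pools and the 3 control pools. *gig2e* (grey) takes 20.6% to 25.9% of the EAE bars and 33.4% to 40.2% of the control bars, and *gig2q* (red) takes 23.8% to 28.7% of the EAE bars and 11.4% to 17.2% of the control bars.

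Copies that lie side by side differed in their change. RefSeq annotates 9 of the 12 symbols on zebrafish assembly GRCz12tu, which is not the build of the counts, so only chromosome and gene order are used. There *gig2l*, *gig2i*, *gig2h*, *gig2g*, *gig2f* and *gig2d* lie in this order on chromosome 21 with no other annotated gene between them. This row of 6 genes holds both *gig2l* and *gig2i*, which had high fold changes, and *gig2h* and *gig2g*, which did not. Its summed level was 5.76, 2.97 and 3.67 CPM in EAE larvae, against 1.87, 2.66 and 1.94 CPM in controls. The 3 genes elsewhere, *gig2q* on chromosome 2 and *gig2o* and *gig2p* far apart on chromosome 5, summed to 17.8, 15.3 and 17.5 CPM in EAE larvae, against 9.02, 8.80 and 9.23 CPM in controls. The genes *gig2e*, *gig2j* and *gig2k* were not placed. How the authors counted reads that align to several copies is not given in the sources used here, so the split within the chromosome 21 row is uncertain.

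Genes beside the Gig2 genes were examined next. Taking up to 3 annotated genes on either side, 24 neighbours were found, of which 17 were in the table and 16 were tested. Most of the tested neighbours lie beside *gig2o* and *gig2p* on chromosome 5. Beside the chromosome 21 row only *pvrl1a* and *si:dkeyp-69c1.9* were tested, so the surroundings of the side-by-side copies were largely not examined. None was higher and 1 was lower at an adjusted p-value below 0.05 (edgeR QL test; 7.22% and 6.95% of all tested genes were called higher and lower). The lower gene was *atf5a*, a stress-responsive transcription factor gene near *gig2o*, at 33.8 ± 0.937 CPM in EAE larvae and 40.3 ± 1.03 CPM in controls (SD, n = 3 each), a log2 fold change of -0.26 (edgeR QL test, adjusted p = 0.0065). At an unadjusted p below 0.05 (edgeR QL test), 1 neighbour was higher and 6 were lower. The share of all tested genes below that unadjusted threshold was not counted. Nothing is therefore read from unadjusted counts, here or in the gene lists that follow. DESeq2's Wald test, which called 8.83% of all tested genes, called 1 of the 16.

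The other genes of the interferon pathway were examined to see whether the Gig2 family moved alone. The 7 lists of pathway genes together held 96 genes in the table, of which 84 were tested. Some listed genes were not in the table under the symbols searched, so nothing is said of them. Found were 30 of 43 effectors, 9 of 12 receptors and kinases, 15 of 19 sensors and adaptors and 10 of 11 transcription factors. Among these, 34 were higher in EAE larvae (40.5%, against 7.22% of all tested genes) and 1 was lower (1.19%, against 6.95%) at an adjusted p-value below 0.05 with the edgeR QL test. The median log2 fold change was 0.28, and 88.1% of the 84 genes had a positive value, against 50.2% of all tested genes. The lists were written with earlier results of these larvae known, so they are not independent evidence of direction. For each list below, the shares of all tested genes called higher and lower are the same 7.22% and 6.95%.

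The interferon genes themselves were scarcely detected. The type I interferon gene *ifnphi1* held 7, 3 and 9 counts in EAE pools, against 7, 5 and 5 in control pools, and *ifnphi2* held 0, 0 and 2 counts in EAE pools, against 1, 1 and 0 in control pools. The 6 ligand genes summed to 0.816, 0.643 and 1.36 CPM in EAE larvae, against 0.857, 0.985 and 0.534 CPM in controls, so the groups overlapped and 0 of the 6 passed the filter. Of the interferon gamma genes, *ifng1-1*, singled out after its values were seen, held 7, 4 and 7 counts in EAE pools, against 1, 5 and 1 in control pools. The other, *ifng1-2*, held 4, 2 and 5 counts in EAE pools, against 2, 3 and 3 in control pools. The gene *ifnphi3* held 1, 4 and 4 counts in EAE pools, against 6, 3 and 2 in control pools.

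Of 9 receptor and JAK kinase genes tested, 2 were higher and 0 lower (7.22% and 6.95% of all tested genes were called in these directions), all 9 had a positive log2 fold change, and the median of their log2 fold changes was 0.06. Without adjustment 3 and 0 had p below 0.05, and DESeq2 called 1 higher. The kinase genes *tyk2* and *jak2a*, which carry the signal from the receptors, had log2 fold changes of 0.29 and 0.19 (edgeR QL test, adjusted p = 0.013 and 0.044). *tyk2* did not pass without EAE replicate 1 or control replicate 3 (adjusted p = 0.058 and 0.069), and *jak2a* passed only without EAE replicate 1 among the fits that left out a pool. The receptor genes *crfb1* and *crfb2* had log2 fold changes of 0.002 and 0.19 and did not pass.

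Among the sensors of viral nucleic acid and their adaptors, 3 of 14 tested genes were higher and 0 lower, and the median of the log2 fold changes was 0.15. Without adjustment 6 were higher and 2 lower at p below 0.05. The gene *tmem173*, which encodes the DNA-sensing adaptor STING, was at 9.58, 8.21 and 10.4 CPM in EAE larvae, against 5.80, 5.73 and 5.92 CPM in controls. Its groups were well apart, at a log2 fold change of 0.69 (standard error 0.11; edgeR QL test, adjusted p = 5.7e-04). The genes *pkz*, a fish kinase that binds viral-type nucleic acid, and *ikbke*, a kinase that activates IRF proteins, had log2 fold changes of 0.60 and 0.39 (adjusted p = 0.0054 and 0.0041). The RNA sensor genes *ifih1* and *dhx58* had log2 fold changes of 0.22 and 0.31 (adjusted p = 0.34 and 0.074 from the same test). *dhx58* passed without the filter on low counts, without EAE replicate 3 and without control replicate 3.

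The list of interferon transcription factors held the largest share of calls among the 7 pathway lists, only slightly above the antiviral effectors (15 of 27 higher). Of 10 tested genes 6 were higher and 0 lower, with a median log2 fold change of 0.48. The gene *irf1a* held 315, 275 and 296 counts in EAE pools, against 128, 98 and 105 counts in control pools. The groups did not overlap, and the log2 fold change was 1.29 (standard error 0.10; edgeR QL test, adjusted p = 2.7e-07). The gene *stat1b* was at 18.0, 20.2 and 22.3 CPM in EAE larvae, against 12.8, 10.8 and 10.2 CPM in controls, and its log2 fold change was 0.84 (edgeR QL test, adjusted p = 1.7e-05, standard error 0.10). Its paralog *stat1a* had a log2 fold change of 0.03 (adjusted p = 0.70). The IRF genes *irf10*, *irf7* and *irf8* had log2 fold changes of 0.86, 0.62 and 0.58, all with standard errors of 0.11.

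Among the feedback inhibitors, 2 of 6 tested genes were higher and 1 was lower, beside 7.22% and 6.95% of all tested genes. The gene *socs1a*, a brake on JAK kinases, was at 15.1, 16.2 and 16.5 CPM in EAE larvae, against 20.0, 24.0 and 27.4 CPM in controls. It was the only one of the 84 tested pathway genes that was lower at an adjusted p-value below 0.05, at a log2 fold change of -0.58 (standard error 0.10; edgeR QL test, adjusted p = 5.5e-04). Its paralog *socs1b* had a log2 fold change of 0.78 (adjusted p = 0.032) and *usp18*, which removes ISG15 from proteins, one of 0.64 (adjusted p = 0.026). Neither of these passed without EAE replicate 1, control replicate 2 or control replicate 3, nor did *socs1b* without EAE replicate 2 or 3. In each of the 3 fits named first 0 inhibitors were higher, and under DESeq2 *usp18* did not pass and *socs1b* had no adjusted p.

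Among the antiviral effectors, which like Gig2 are products of interferon signalling, 15 of 27 tested genes were higher and 0 lower, with a median log2 fold change of 0.40. The Mx gene *mxc* was at 49.0, 52.5 and 59.8 CPM in EAE larvae, against 33.7, 36.7 and 27.8 CPM in controls, a log2 fold change of 0.72 (standard error 0.09; edgeR QL test, adjusted p = 2.4e-05). The Mx proteins are GTPases that block viruses, and *mxf* and *mxa* followed with log2 fold changes of 0.74 and 1.65 (standard errors 0.10 and 0.25). The Mx genes *mxd* and *mxg* did not pass, at log2 fold changes of 0.18 and -0.30 (edgeR QL test, adjusted p = 0.57 and 0.68). The guanylate-binding protein gene *gbp1* had a log2 fold change of 0.51 and the ubiquitin-like modifier gene *isg15* one of 0.79 (adjusted p = 4.3e-04 and 0.0072). The ISG15-activating enzyme gene *uba7* had a log2 fold change of 0.53. The other 9 effectors that passed were *ifit9*, *mxe*, *ch25h*, *gbp4*, *gbp2*, *xaf1*, *isg20*, *gbp3* and *ifi30*, with log2 fold changes of 1.39 for *ifit9* to 0.25 for *ifi30*. Counts of *ifit9* were 20, 25 and 13 in EAE pools, against 8, 4 and 8 in control pools. It therefore passed the filter on low counts only through its EAE pools, and under DESeq2 it had no adjusted p. The genes *ifit11*, *ifit12*, *ifit14*, *ifit15* and *ifit16* did not pass, with log2 fold changes from -0.13 for *ifit15* to 0.59 for *ifit14*. The gene *rsad2*, which encodes viperin, also did not pass. It was at 0.558, 0.643 and 1.16 CPM in EAE larvae, against 0.907, 0.811 and 0.631 CPM in controls, and its log2 fold change was -0.01 (adjusted p = 0.99).

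The antigen presentation and immunoproteasome genes included 6 higher and 0 lower of 18 tested, with a median log2 fold change of 0.34. The proteasome activator genes *psme2* and *psme1*, the peptide transporter gene *tap1* and the peptide-trimming enzyme genes *erap2* and *erap1b* had log2 fold changes of 0.79, 0.63, 0.59, 0.44 and 0.40. The immunoproteasome subunit genes *psmb8a* and *psmb9a* were low in counts, had log2 fold changes of 0.18 and 0.46 and did not pass.

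The PARP genes that were tested, whose catalytic domain Gig2 proteins resemble, had a median change near 0. Of the 19 genes listed, 13 were in the table under the symbols searched. The genes *parp9*, *parp10*, *parp14* and *zc3hav1* were not, so nothing is said of them. Of 13 tested, 0 were higher and 1 was lower at an adjusted p-value under 0.05 (edgeR QL test), where 7.22% and 6.95% of all tested genes were called. With so few genes, these counts are not read as a difference from all tested genes. At an unadjusted p below 0.05 the counts were 1 and 1, and DESeq2 called 0 in either direction. The median log2 fold change was -0.005. The lower gene was *parp6a*, at a log2 fold change of -0.46 (edgeR QL test, adjusted p = 0.031), which did not pass without EAE replicate 1, control replicate 1 or control replicate 3 (adjusted p = 0.17, 0.057 and 0.17). The gene higher only before adjustment was *parp12a*, at a log2 fold change of 0.28 (edgeR QL test, adjusted p = 0.075). The founding members *parp1* and *parp2* had log2 fold changes of -0.02 and 0.10.

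**Figure D4:**
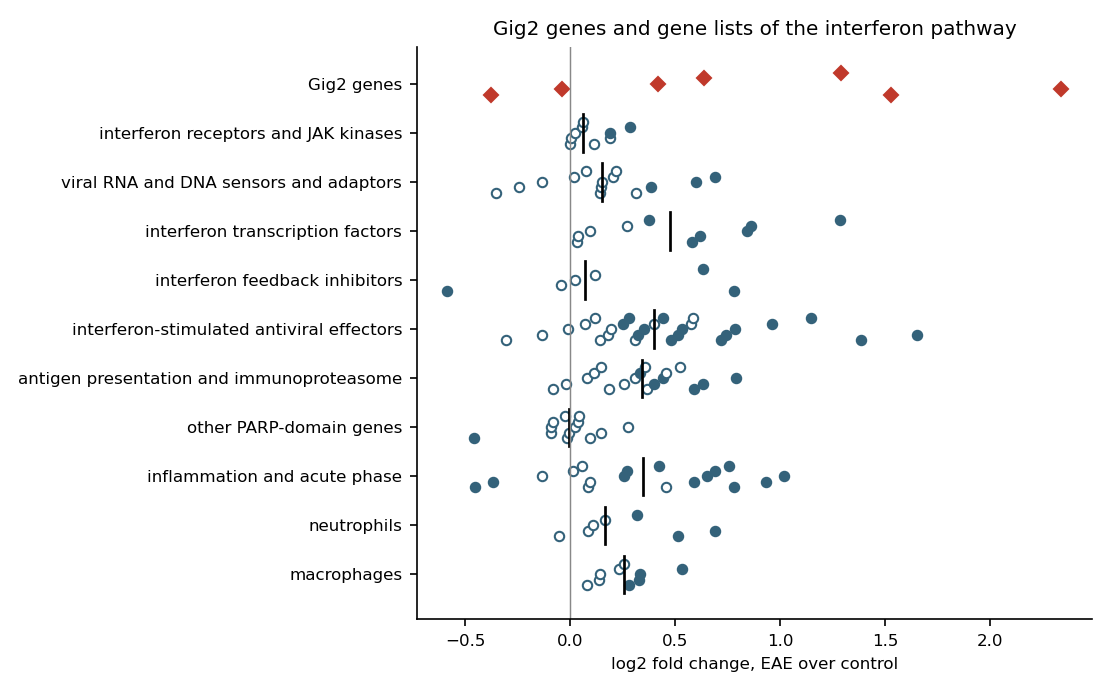
Log2 fold change of EAE over control (horizontal axis) for the tested genes of each list (rows); red diamonds are Gig2 genes, circles are list genes, filled where the adjusted p-value (edgeR QL test) was below 0.05, and black lines are list medians. Of the lists drawn, which leave out lymphocytes, epithelia and liver, the medians run from -0.005 for other PARP-domain genes to 0.48 for interferon transcription factors, and *gig2l* at 2.34 lies furthest right.

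Some markers of neutrophils and macrophages, leukocytes in which interferon-induced genes are active, were also higher in EAE larvae. The neutrophil list held 7 tested genes, of which 3 were higher and 0 lower, with a median log2 fold change of 0.16. Of all tested genes, 7.22% were called higher and 6.95% lower. The lists are not separate evidence. The gene *lect2l*, 1 of the 3, is also on the inflammation and acute-phase list, and the macrophage marker *cd74a* is also on the antigen presentation list. Among the 7 neutrophil genes, *cpa5* serves in the study as a marker of exocrine pancreas and took most of the list's summed level. The lysozyme gene *lyz* was at 44.0, 38.2 and 45.2 CPM in EAE larvae, against 26.8, 30.0 and 32.5 CPM in controls, a log2 fold change of 0.51, while the peroxidase gene *mpx* had one of 0.11 and did not pass (edgeR QL test, adjusted p = 2.1e-04 and 0.43). With *cpa5* the sums overlapped between groups, at 1581 to 1855 CPM in EAE larvae and 1619 to 1912 CPM in controls. The list was also summed with *cpa5* left out, a choice made once the values had been seen, and the sums then lay apart, at 264 to 294 CPM in EAE larvae and 209 to 244 CPM in controls, and 3 of 6 tested genes were higher (median 0.24 on the log2 scale). Of 9 tested macrophage markers 4 were higher and 0 lower, with a median of 0.26, and *mpeg1.1*, a macrophage pore protein gene, had a log2 fold change of 0.33 (adjusted p = 0.0013). The genes *lyz*, *mpx*, *cpa5* and *mpeg1.1* were singled out after their values were seen. The macrophage list summed to 243 to 268 CPM in EAE larvae and 214 to 226 CPM in controls. Of 9 tested lymphocyte markers 0 passed in either direction (1 higher and 0 lower at an unadjusted p below 0.05; DESeq2 called 0), and their sums overlapped, at 31.3 to 38.6 CPM in EAE larvae and 29.0 to 42.5 CPM in controls. No marker of these lists that the table holds was at 0 in every pool, and the part of leukocytes in the Gig2 difference was not tested.

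The genes most like the family were found by comparing each tested gene's centred log2 level over the 6 pools with that of the summed Gig2 level. The 10 closest were FO704661.1, *si:ch211-229n2.7*, *tmem173*, CR385050.5, *psmb4*, *gmds*, *si:ch73-329n5.6*, *tlcd1*, *serpina7* and *psmd11b*, with root mean square differences of 0.0545 to 0.0714 log2 units, against a median of 0.347 over all tested genes. The closeness is that of the whole 6-pool pattern, which the difference between the groups dominates, and 2858 tested genes lay within 0.25 log2 units. Among the 10, *tmem173* is on the interferon lists, *psmb4* and *psmd11b* encode proteasome subunits, and *gmds* encodes an enzyme of fucose synthesis.

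**Figure D5:**
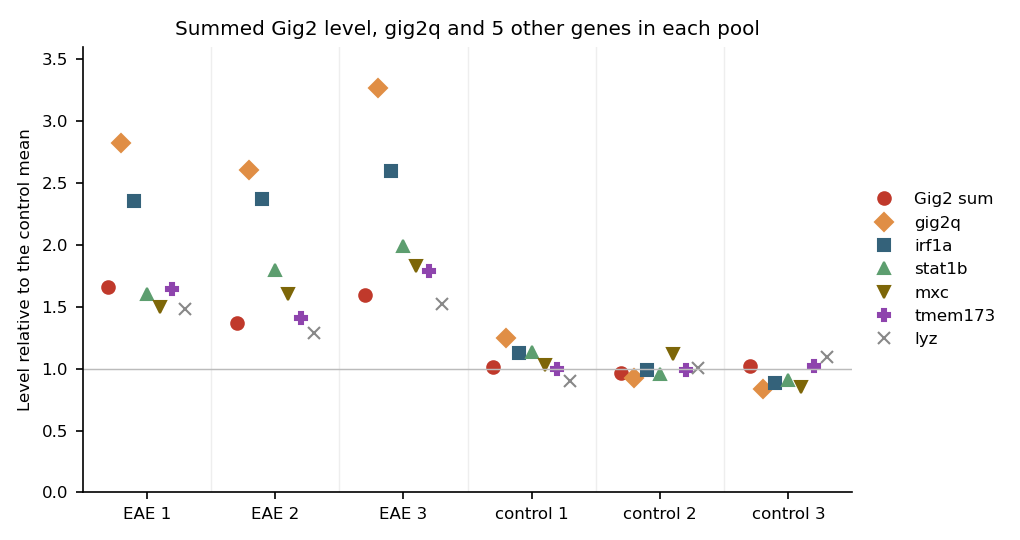
Level in each pool divided by the mean of the 3 control pools (vertical axis, linear from 0, with 1 the control mean). Drawn are the summed Gig2 genes, *gig2q*, the interferon pathway genes *irf1a*, *stat1b*, *mxc* and *tmem173*, and the neutrophil gene *lyz*. These pathway and neutrophil genes all had an adjusted p-value below 0.05 in this contrast (edgeR QL test), so they do not stand for their lists. Not drawn are genes of the same lists that did not pass, among them *stat1a*, *rsad2* and *mpx*. The summed Gig2 level lies at 1.66, 1.37 and 1.59 in EAE pools 1, 2 and 3, and *tmem173* at 1.65, 1.41 and 1.79. *tmem173* is among the 10 genes picked as closest to this sum over these pools, so its closeness follows from that choice. *gig2q* lies at 2.60 to 3.27 in EAE pools.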

How the data were processed

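RNA-Seq was performed by the authors on pools of whole larvae, with single-end sequencing of poly-A selected RNA. Per the labels and the study's methods, the authors aligned reads to GRCz10 with STAR and deposited raw counts of reads per gene symbol. The program that counted them, its annotation, its use of strand and its handling of multi-mapping reads are not given in the sources used here. The row with no gene name (1.49% to 1.57% of counts) was left out, and 17 rows with names turned into dates were kept but are not named.

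Counts were fitted with edgeR 4.0.16 in R 4.3.3: filterByExpr, TMM scaling and the quasi-likelihood F test of EAE against control, with Benjamini-Hochberg adjustment over 21617 genes. Standard errors were derived as the absolute log2 fold change divided by the square root of F. Likeness used log2 levels, with a prior count of 2 for the single genes and none for the Gig2 sum. Alternatives were DESeq2 1.42.0, RLE or no scaling factors, no filter, a replicate block and each pool left out. The fit was tested on simulated data.

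The members and lists were chosen with earlier results of these data known. Named were every Gig2 gene, the 5 smallest p-values among passing genes and the first 2 genes of each pathway list, the 10 genes most like the family, and passing neighbours. Of the members, 11 matched an Ensembl ID and 9 a RefSeq symbol (GRCz12tu). No sequence was used here.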

Additional observations from a re-analysis of the deposited data

How the results depend on the processing

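The summed Gig2 log2 ratio of 0.62 was 0.62 with RLE factors, 0.61 without TMM factors and 0.57 to 0.70 with single pools left out. Without *gig2e*, the member with the most counts, it was 0.91, and without both *gig2e* and *gig2q* it was 0.66. The number of members with groups apart was 6 with RLE factors and 6 without TMM factors. Leaving out a pool can only keep or raise this number, so the 6 or 7 found there tells nothing of its stability. With the replicate block, 7 members had every within-number difference above 0, which is a different rule. The labels do not say whether equal replicate numbers share a clutch. Correlations of deviations were -0.0934 to -0.00858 for equal numbers and -0.0331 to 0.0675 for unequal numbers. With so few pools, correlations this weak cannot decide whether equal numbers are paired. With the replicate block the summed log2 ratio was 0.62, 2336 genes passed and 32 pathway genes were higher. The number of genes that differed, 3063, was 1909 with DESeq2's Wald test, 3509 without the filter on low counts, and 1641 to 2996 with single pools left out, lowest without EAE replicate 1, with 1756 without control replicate 1 and 1968 without control replicate 2. Pathway genes called higher numbered 27 to 32 with single pools left out, 28 with DESeq2 and 34 with all pools. Low counts limit *gig2d*, *gig2f*, *gig2g*, *gig2j* and *gig2k*, and read sharing between copies was not tested.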

Other observations

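Inflammation and acute-phase genes, a response of leukocytes and liver to injury or microbes, also differed between the groups. Of 18 tested, 10 were higher and 2 lower in EAE larvae (edgeR QL test, adjusted p below 0.05 over the whole table, which 7.22% and 6.95% of all tested genes passed in these directions), with a median log2 fold change of 0.35. The acute-phase gene *crp* was at 67.6, 91.2 and 70.7 CPM in EAE larvae, against 30.9, 41.0 and 48.3 CPM in controls, a log2 fold change of 0.93 (standard error 0.12). The leukocyte attractant genes *lect2l* and *cxcl8b.1* had log2 fold changes of 0.69 and 1.02 (edgeR QL test, adjusted p = 1.2e-06 and 0.0027), *irg1*, an enzyme gene of activated macrophages, one of 0.59, and the cytokine gene *il1b* one of 0.78 (adjusted p = 5.5e-04 and 0.012). For *il1b* EAE pool 1 was the highest, at 6.57 CPM, against 3.81 and 4.83 CPM in the other EAE pools and 2.38 to 3.48 CPM in controls, and *il1b* did not pass without EAE replicate 1 (log2 fold change 0.54, adjusted p = 0.10) or without control replicate 3 (0.64, adjusted p = 0.061). The NF-kB inhibitor gene *nfkbiab* and the prostaglandin synthase gene *ptgs2a* fell, with log2 fold changes of -0.45 and -0.37; *ptgs2a* was named after its values were seen. The relation of these genes to the Gig2 genes was not tested.

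Epithelial and liver markers were the other cell type lists. Of 9 tested intestinal markers 0 were higher and 1 was lower, and of 11 skin and gill markers 3 were higher and 3 lower, beside the same 7.22% and 6.95% of all tested genes. Of 10 liver markers 5 were higher and 1 was lower, with 2 higher without control replicate 1 and 3 higher without EAE replicate 3 or without control replicate 3.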
